A study of Mus musculus with 12 samples.

Results

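Expression in day 6 cells that had lost the surface marker Thy-1 (D6T-) was compared with expression in unsorted day 3 cells (D3). The comparison used 2 of the 12 mRNA-Seq libraries of the series, 1 for each condition. Genes were taken when they reached 1 FPKM (fragments per kilobase of transcript scaled to the mapped fragments of the library) in at least 1 of the 2 libraries, which held for 11846 of the 24098 genes listed. The estimate of 6 of them had failed in 1 of the libraries, and the remaining 11840 genes are described. At the border of this choice, Edil3 was just inside with 1.00 FPKM in D3 and 0.434 FPKM in D6T-, while Col11a2 was just outside with 0.977 FPKM and 0.998 FPKM. Differences are given as D6T- minus D3 on the scale log2(FPKM + 1), which understates the change of genes with low values. A gene is called higher or lower when the difference is at least 2-fold on that scale.

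All cells came from mouse embryonic fibroblasts (MEFs) whose Oct4 (Pou5f1) gene carried an IRES-EGFP reporter behind its stop codon. The strain of the mice was not given in the sources used here. Both libraries followed infection with pMXs retroviruses for Oct4, Sox2, Klf4 and c-Myc (OSKM) in the presence of polybrene, and culture without feeder cells in a serum-replacement medium with LIF, ascorbic acid, bFGF and CHIR99021. D3 was collected 3 days after OSKM induction without sorting. D6T- was the fraction without Thy-1 on day 6, and the Thy-1+ fraction of that day (D6T+) is given beside it. Day 0 fibroblasts (D0) and the Thy-1- and Thy-1+ fractions of day 9 (D9T- and D9T+) serve for orientation. Since D3 was unsorted and D6T- was sorted, the passage of 3 days, the choice of cells and the handling of the sort cannot be told apart in this comparison. In bulk libraries, fewer cells of a type and less RNA per cell cannot be told apart either. With 1 library a side there is no replicate check and no test, and all counts and medians are descriptions of these libraries.

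Thy-1 is a small surface glycoprotein of fibroblasts that is lost from cells early in reprogramming. The early phase is known for a mesenchymal-to-epithelial transition, in which fibroblasts give up their stress fibres and extracellular matrix and acquire the cell-cell junctions of an epithelium. Snail, Twist and Zeb factors repress epithelial genes in mesenchymal cells, TGF-beta sustains the mesenchymal program, and serum response factor (SRF) with its coactivator MKL1 drives the actin and smooth muscle genes. Activation of the endogenous pluripotency network follows later.

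Thy1, whose protein was used for the sort, was at 123 FPKM in D3, 3.24 FPKM in D6T- and 477 FPKM in D6T+. Among 6 fibroblast markers that passed the 1 FPKM filter, of 8 chosen, 4 were lower, against 7.92% of all genes, and none was higher. Thy1 is 1 of these 4, and its protein defined the fraction. Col3a1 and Dcn were not past 2-fold, and Pdgfra and Lum were below 1 FPKM in both libraries. The summed level of the 8 markers was 1940 FPKM in D3 and 401 FPKM in D6T-. Of 6 epithelial markers, 4 passed, 2 were higher and the sum went from 7.85 FPKM to 28.7 FPKM. The sum of 10 leukocyte markers was 29.3 FPKM in D3 and 24.8 FPKM in D6T-. Of the 5 that passed, 2 did so only through D3 and 1 only through D6T-. Csf1r was lower, none was higher and the median was -0.59. Ptprc, which encodes the pan-leukocyte antigen CD45, was below the filter in both libraries at 0.0244 FPKM and 0.425 FPKM. The sum of 8 endothelial markers was 12.7 FPKM and 15.5 FPKM, of which Tek made up 7.54 FPKM and 12.9 FPKM. Of the 4 endothelial markers that passed, 3 did so only through D3. Cdh5 was lower, none was higher and the median was -0.54. All erythroid and mast cell markers were below 1 FPKM in both libraries. Skeletal muscle markers differed more. Their sum went from 169 FPKM in D3 to 21.3 FPKM in D6T- and 31.5 FPKM among D6T+ cells, and Acta1, the actin of skeletal muscle, was at 106, 10.8 and 18.5 FPKM in that order. The depth of D6T- was 1.04 times that of D3 by the step size of weakly expressed genes, and the total FPKM was 538009 in D3 and 514910 in D6T-.

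Over all genes the difference was centred near zero, with a median of 0.03 and quartiles of -0.34 and 0.33. Of the 11840 genes, 561 (4.74%) were higher in D6T- and 938 (7.92%) were lower. At 4-fold, 119 genes were higher and 183 lower, and at 16-fold 13 were higher and 16 lower. The balance of higher and lower genes differed with the level. Among 1798 genes with a mean of at least 50 FPKM, 32 were higher and 160 lower, while among 3679 genes with a mean below 5 FPKM 257 were higher and 323 lower. The 95% intervals that the authors' software gave were wide, with a median half-width of 99.6% of the FPKM, and they lay apart for 2 genes only (0.0169%), Cnn1 and Myl9, both lower in D6T-. These intervals are modelled and hold no measured biological variation.

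**Figure D1:**
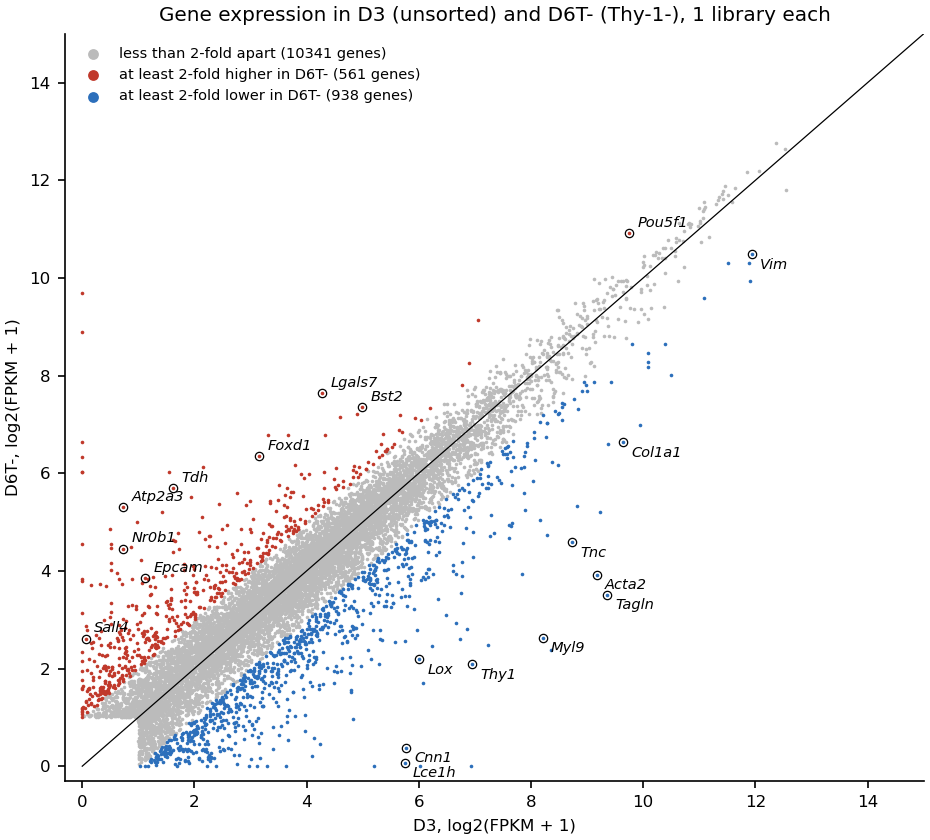
Expression of 11840 genes in D3 (horizontal axis) and D6T- (vertical axis), both as log2(FPKM + 1), with 1 point per gene and the line of equal values. The 938 lower genes (blue) include Tagln, Acta2 and Myl9 far below the line at high D3 levels, and the 561 higher genes (red) lie mostly at low D3 levels, as Tdh and Nr0b1 do.

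The contractile apparatus and mesenchymal adhesion genes showed the lowest median of the 35 gene lists examined. Of 25 listed genes 22 passed the filter, 20 of these (90.9%) were lower in D6T- against 7.92% of all genes, and none was higher. The median difference was -2.23. Among the 20 genes at 1 FPKM or more in both libraries 18 were lower. Tagln (transgelin, an actin-binding protein of smooth muscle, on chromosome 9 of build mm9, 45737711 to 45744141, minus strand) was at 652 FPKM in D3 and at 10.4 FPKM in D6T-, which is 62.7-fold lower. Acta2, the smooth muscle actin of stress fibres and myofibroblasts, was at 575 FPKM and 14.2 FPKM, or 40.6-fold lower. Myl9, a regulatory light chain of myosin (chromosome 2, 156601156 to 156607394, plus strand), went from 295 FPKM to 5.21 FPKM. Cnn1, the calponin that binds actin in smooth muscle, went from 53.7 FPKM (interval 3.41 to 104.0) to 0.304 FPKM (interval 0 to 1.05). Myl9 and Cnn1 were the pair whose intervals did not overlap.

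Other parts of the actin cytoskeleton were lower by smaller amounts. The tropomyosin gene Tpm1 went from 987 FPKM to 125 FPKM, the alpha-actinin gene Actn1 from 233 FPKM to 47.5 FPKM and the filamin gene Flna from 374 FPKM to 173 FPKM. Vim, which encodes the intermediate filament protein vimentin, was still among the most abundant transcripts at 1427 FPKM in D6T- after 3905 FPKM in D3. Adhesion genes followed the same direction. N-cadherin (Cdh2) went from 44.7 FPKM to 10.3 FPKM, cadherin 11 (Cdh11) from 55.2 FPKM to 13.8 FPKM, and the fibronectin receptor subunits Itga5 and Itgb1 from 125 FPKM to 26.7 FPKM and from 149 FPKM to 50.8 FPKM. The 2 genes of the list that were not lower were Itgb5, at 63.1 FPKM and 54.9 FPKM, and Srf, at 26.3 FPKM and 23.5 FPKM. The transcription factor SRF was listed at a similar level in both libraries, while its coactivator Mkl1 went from 24.0 FPKM to 10.3 FPKM.

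**Figure D2:**
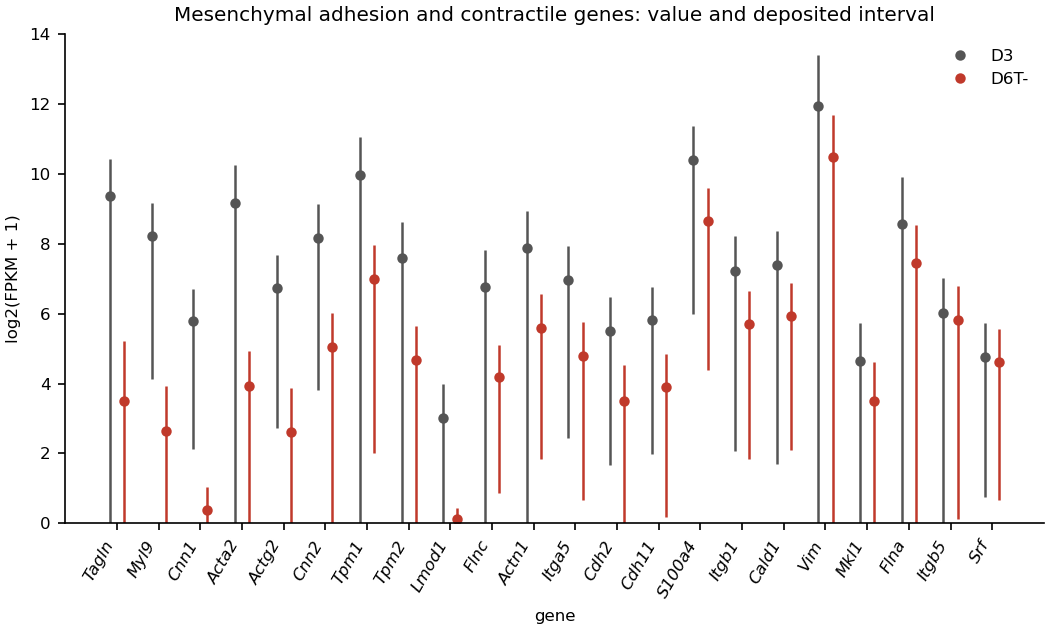
Level of the 22 mesenchymal adhesion and contractile genes in D3 (grey) and D6T- (red) as log2(FPKM + 1), with the deposited 95% interval as a vertical line. All 22 red points lie below the grey ones, and the lines of Myl9 and Cnn1 do not overlap.

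In the Thy-1+ fraction of the same day the leading genes had intermediate values. Tagln was at 208 FPKM in D6T+, Acta2 at 166 FPKM, Myl9 at 76.1 FPKM and Cnn1 at 7.86 FPKM, in each case between D3 and D6T-. The median of the list was -0.42 for D6T+ minus D3. S100a4 and Cdh11 were listed above D3 in D6T+, with 1903 FPKM against 1344 FPKM and 62.7 FPKM against 55.2 FPKM. Both fractions are set against the same D3 library. The skeletal muscle markers named above were reduced in both fractions, and their part in the contractile values was not tested.

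The promoters of the contractile list were searched for the CArG box, the recognition sequence of SRF, in the 250 bases before the transcription start (RefSeq, build GRCm38.p6). This motif was chosen after the values of the list had been seen. Of the 22 genes 18 had a promoter in the table, with 21 promoters in all, and 3 promoters held a CArG box on either strand. The motif was found in 1.47% of all 32851 promoters. The 3 promoters belonged to Cnn2, Myl9 and Srf, of which Srf was not lower. No share is given for the list, since not all of its genes were matched, and enrichment of the motif was not tested. The promoter of Myl9 is shown because it was among the genes with the largest reduction (chr2:156775214-156775463, plus strand). Capitals mark the CArG box, 161 to 152 bases before the start.
Myl9 promoter: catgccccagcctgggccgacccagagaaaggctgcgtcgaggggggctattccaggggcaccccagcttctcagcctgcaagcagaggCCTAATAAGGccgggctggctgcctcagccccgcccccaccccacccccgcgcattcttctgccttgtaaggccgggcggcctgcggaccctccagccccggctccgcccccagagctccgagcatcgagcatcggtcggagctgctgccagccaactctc
The motif is a match of letters and was not tested for binding.

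Many genes of the extracellular matrix were lower. Among 44 collagen genes 26 passed the filter, and 15 of them (57.7%) were lower and 1 was higher, with a median of -1.16. Over all 44 genes the median was -0.18, as 18 were below 1 FPKM in both libraries. Fibrillar and other collagens were among the lower genes. Col1a1 went from 798 FPKM in D3 to 98.2 FPKM in D6T-, Col1a2 from 662 FPKM to 95.2 FPKM and Col5a2 from 194 FPKM to 29.8 FPKM. Col12a1, which associates with collagen fibrils, went from 30.2 FPKM to 3.16 FPKM, and Col7a1, the collagen of anchoring fibrils, from 17.7 FPKM to 2.18 FPKM. The fibrillar Col3a1 was at 340 FPKM and 198 FPKM, which is not past 2-fold. The basement membrane collagen Col4a1 went from 384 FPKM to 169 FPKM. In contrast to these, the collagen VI genes were not lower. Col6a1 was at 130 FPKM and 117 FPKM, Col6a2 at 13.2 FPKM and 18.0 FPKM, and Col6a3 at 7.35 FPKM and 14.2 FPKM. In D6T+ the latter were at 145 FPKM and 97.2 FPKM. The single higher collagen was Col25a1, a membrane collagen known from neurons, at 0.405 FPKM and 4.75 FPKM.

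Enzymes that crosslink or fold collagen were lower in 10 of 24 cases (41.7%), with a median of -0.78 and none higher. Lox, the lysyl oxidase that crosslinks collagen and elastin, went from 63.0 FPKM to 3.56 FPKM, and Loxl2 from 88.4 FPKM to 7.51 FPKM. Sparc, a collagen-binding matrix protein, went from 1081 FPKM to 290 FPKM. The collagen chaperone Serpinh1 changed less, from 712 FPKM to 439 FPKM, and was not past 2-fold.

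Of 39 non-collagen matrix genes 33 passed, 17 of these (51.5%) were lower and 2 higher, and the median was -1.07. Tnc (tenascin C, an adhesion-modulating glycoprotein) went from 425 FPKM to 23.001 FPKM, while it was at 416 FPKM in D6T+. Thbs1 (thrombospondin 1, which can activate latent TGF-beta) went from 597 FPKM to 36.0 FPKM, and was at 382 FPKM in D6T+. The small proteoglycan gene Bgn went from 450 FPKM to 39.0 FPKM and was at 503 FPKM in D6T+. For these 3 genes the Thy-1+ fraction thus stayed near D3 or within 2-fold of it. Fn1 (fibronectin) was at 477 FPKM in D3, 205 FPKM in D6T- and 259 FPKM in D6T+. The difference from D3 was past 2-fold for D6T- only. Among tissue inhibitors of metalloproteinases, Timp1 went from 683 FPKM to 234 FPKM, Timp2 from 208 FPKM to 69.1 FPKM and Timp3 from 55.3 FPKM to 18.1 FPKM. Of the 14 metalloproteinase and inhibitor genes that passed, 7 were lower and 1, Mmp28, was higher. Of these 14 genes, 3 passed only through D3, and among the 11 at 1 FPKM or more in both libraries 5 were lower. The exceptions within the matrix were Prelp, a leucine-rich proteoglycan that went from 2.51 FPKM to 15.3 FPKM, and the fibrillin gene Fbn2, from 26.5 FPKM to 54.1 FPKM.

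**Figure D3:**
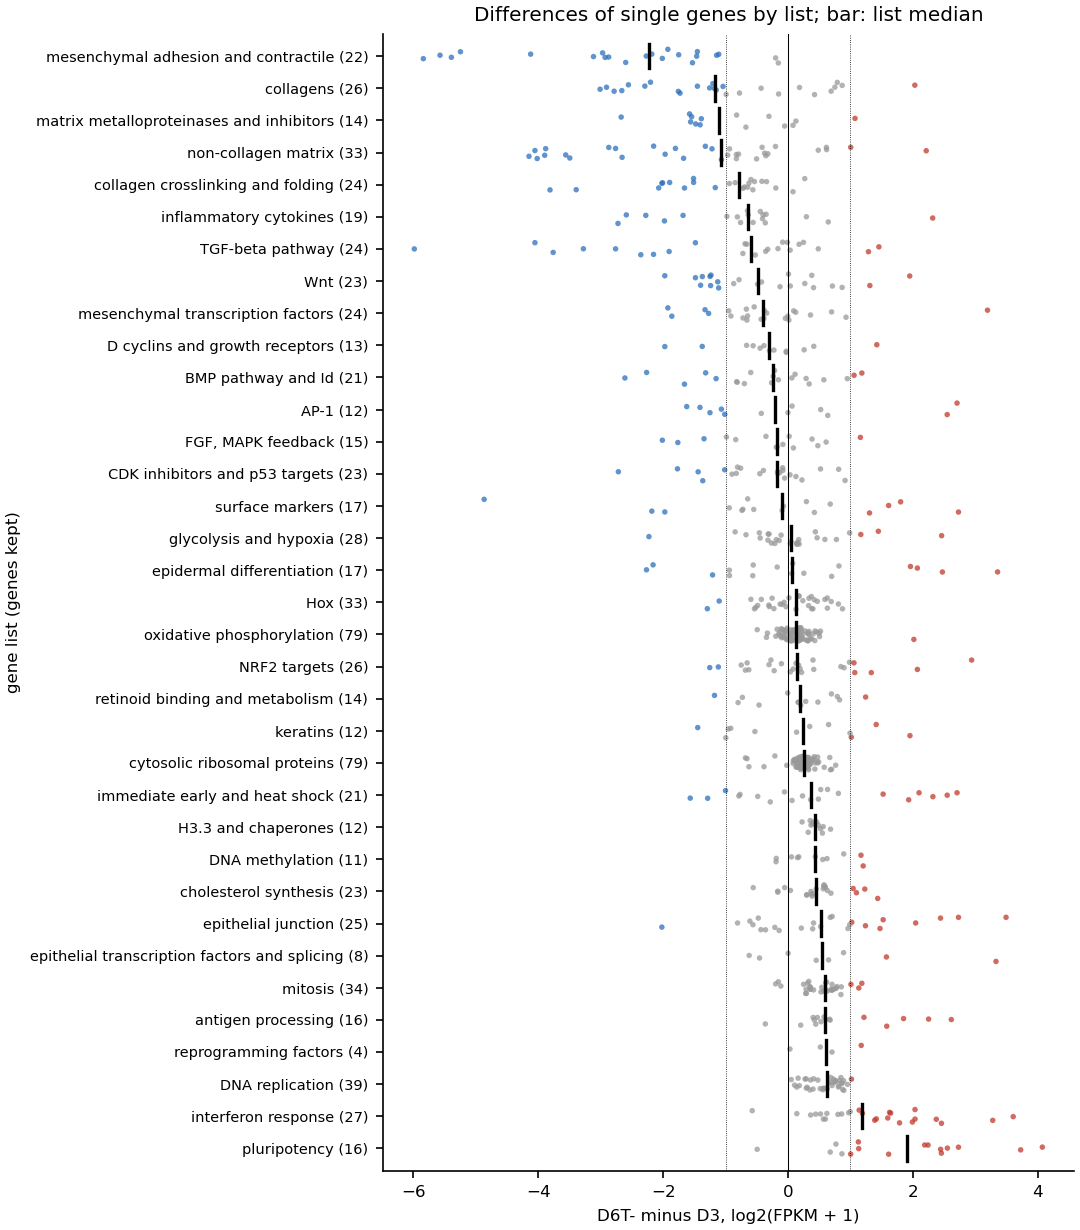
Difference between D6T- and D3 (horizontal axis, log2(FPKM + 1)) of every kept gene in 35 lists, ordered by the list median (black bar), with dotted lines at 2-fold. The contractile list lies at the lower end with a median of -2.23 and pluripotency at the upper end with 1.90, a place it holds only over genes that passed the filter (0.43 over all its genes, against 0.86 for interferon response), while oxidative phosphorylation and ribosomal protein genes cluster near zero.

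Many matrix and contractile genes are targets of TGF-beta, and components of that pathway were examined by role. All 24 listed genes passed the filter, 9 (37.5%) were lower and 2 higher, and the median was -0.59. The ligand Tgfb1 went from 25.2 FPKM to 4.89 FPKM and Tgfb3 from 16.99 FPKM to 5.44 FPKM. Inhba, which encodes a subunit of the related ligand activin, went from 74.1 FPKM to 4.54 FPKM. The receptors and signal transducers moved little. Tgfbr1 was at 1.55 FPKM and 1.53 FPKM, Tgfbr2 at 56.5 FPKM and 45.0 FPKM, Smad2 at 3.11 FPKM and 3.21 FPKM, Smad3 at 18.0 FPKM and 16.9 FPKM and Smad4 at 24.9 FPKM and 29.7 FPKM. Acvrl1, a type I receptor best known from endothelium, was the receptor with a large difference, from 26.6 FPKM to 1.85 FPKM. Several target genes were lower. Ctgf, a matricellular target of TGF-beta and of YAP, went from 115 FPKM to 6.01 FPKM, and the feedback inhibitors Smad7 and Pmepa1 from 11.3 FPKM to 2.29 FPKM and from 14.4 FPKM to 2.00 FPKM. Tgfbi, named for its induction by TGF-beta, went the other way from 1.25 FPKM to 5.17 FPKM. Ctgf was low in D6T+ as well, at 9.56 FPKM, whereas Tgfb1 was at 28.8 FPKM there.

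In the BMP pathway, 5 of 21 genes that passed (23.8%) were lower and 2 (9.52%) higher, against 7.92% and 4.74% of all genes. Of the 21, 4 passed only through D3 and 2 only through D6T-. Among the 15 at 1 FPKM or more in both libraries 4 were lower and 1 higher. The secreted BMP antagonist Grem1 went from 96.6 FPKM to 15.0 FPKM and was at 159 FPKM in D6T+. Id1, a direct BMP target, was higher at 68.5 FPKM after 29.6 FPKM, and at 79.6 FPKM in D6T+. Among 23 Wnt genes that passed, 9 were lower and 2 higher, and 9 of the 23 had passed through their D3 value alone. Among the 13 at 1 FPKM or more in both libraries 4 were lower and 2 higher. Wnt5a, a non-canonical ligand of mesenchyme, went from 16.9 FPKM to 3.56 FPKM, and the secreted antagonist Sfrp4 from 1.51 FPKM to 8.70 FPKM.

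Mesenchymal transcription factors differed less than the genes of the matrix. Of 24 that passed, 4 (16.7%) were lower, against 7.92% of all genes, and 1 was higher, with a median of -0.41. Of the 24, 4 passed only through D3 and 1 only through D6T-. Among the 19 at 1 FPKM or more in both libraries 3 were lower and 1 higher. Snai2 (Slug, a repressor of epithelial genes) went from 5.61 FPKM to 0.741 FPKM. It passed only through D3, so its direction was set by the filter. The paired-type homeobox gene Prrx2 went from 7.99 FPKM to 1.47 FPKM. Runx2 and Osr1 were the remaining lower genes. Snai1 was at 14.4 FPKM and 8.82 FPKM, Twist1 at 39.0 FPKM and 19.7 FPKM, Zeb1 at 6.00 FPKM and 4.53 FPKM and Zeb2 at 4.35 FPKM and 3.10 FPKM. These 4 classical repressors were listed below their D3 value and none passed 2-fold. In D6T+, Snai1, Zeb1 and Zeb2 were above D3, at 23.9, 11.7 and 7.92 FPKM. The median of the list there was 0.51. The forkhead factor Foxd1, known from the stroma of the developing kidney, stood apart from its list with 7.86 FPKM in D3, 80.2 FPKM in D6T- and 12.4 FPKM in D6T+.

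Some epithelial junction genes were higher, from low levels. Of 34 genes 25 passed the filter, 8 (32.0%) were higher against 4.74% of all genes, and 1 was lower. The median was 0.52 over the genes that passed and 0.47 over all 34. A low gene that passed only through D6T- had to be higher there, which was so for 5 of the 25. Among the 19 genes at 1 FPKM or more in both libraries 5 were higher and none was lower. Epcam, an adhesion molecule of epithelia and pluripotent cells (chromosome 17, 88035319 to 88050446, plus strand), was at 1.17 FPKM in D3, 13.4 FPKM in D6T- and 2.84 FPKM in D6T+. E-cadherin (Cdh1), the central adhesion molecule of epithelia, was at 3.41, 6.05 and 2.27 FPKM, which is not past 2-fold. The desmosomal plakophilin Pkp1 was at 3.83, 25.3 and 10.8 FPKM, and the membrane serine protease inhibitors Spint1 and Spint2 at 0.433, 15.1 and 3.89 FPKM and at 11.5, 50.6 and 17.6 FPKM. Each of these 5 genes was highest in D6T-, but all except Cdh1 were named as higher genes, which favours D6T-. P-cadherin (Cdh3) was the lower member, at 3.91 FPKM in D3 and 0.211 FPKM in D6T-. Some junction genes that were already abundant in D3 were not higher. Perp was at 126 FPKM and 71.7 FPKM, and Jup (plakoglobin) at 61.4 FPKM and 39.9 FPKM. Occludin (Ocln) and Cldn7 stayed below 1 FPKM in both libraries.

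Of 18 epithelial transcription factors and splicing regulators 8 passed the filter, and 4 of these did so only through D6T-. Elf3, an ETS factor of epithelial differentiation, was at 0.531 FPKM in D3, 14.4 FPKM in D6T- and 3.82 FPKM in D6T+. Grhl1, a Grainyhead factor that controls desmosomal cadherins, was at 0.721 FPKM, 4.13 FPKM and 0.744 FPKM. These were the 2 higher genes and none was lower. None of the 3 genes at 1 FPKM or more in both libraries was past 2-fold. The splicing regulator Esrp2 was at 6.95 FPKM and 9.87 FPKM, and Grhl2, Ovol1, Ovol2 and Esrp1 were below 1 FPKM in both libraries. Keratins of simple epithelia did not move as a pair. Krt8 was at 14.5 FPKM in D3 and at 58.9 FPKM in D6T-, and its usual partner Krt18 at 18.6 FPKM and 6.21 FPKM. Of 12 keratins that passed, 3 were higher and 1 was lower.

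The E-box CACCTG, with its reverse complement CAGGTG, is bound by Snail, Slug and Zeb factors. It was looked for in the same 250 bases of the promoters. It was found in 17.2% of all 32851 promoters. No share is given for gene lists, since only 14 of the 25 epithelial junction genes and 407 of the 561 higher genes were matched to the table. The promoters of Epcam (chr17:87635729-87635978, plus strand) and Elf3 (chr1:135258473-135258722, minus strand) were picked by hand. They are shown as examples of higher genes with the motif. Among the junction genes the motif was also found for Crb3, Rab25 and Spint2, which were higher, and for Cldn4, F11r, Lsr and Tjp3, which were not. Capitals mark the E-boxes, which begin 187 and 19 bases before the start in Epcam and 140 bases before it in Elf3.
Epcam promoter: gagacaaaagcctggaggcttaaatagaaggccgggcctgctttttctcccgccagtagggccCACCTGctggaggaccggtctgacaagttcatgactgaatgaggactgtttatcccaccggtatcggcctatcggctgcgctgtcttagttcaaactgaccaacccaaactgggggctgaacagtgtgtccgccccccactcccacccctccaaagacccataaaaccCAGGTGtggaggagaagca
Elf3 promoter: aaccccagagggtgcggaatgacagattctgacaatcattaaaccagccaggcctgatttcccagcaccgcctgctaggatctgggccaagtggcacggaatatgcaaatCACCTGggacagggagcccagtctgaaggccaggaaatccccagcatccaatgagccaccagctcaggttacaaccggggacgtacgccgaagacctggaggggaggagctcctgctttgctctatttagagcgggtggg
No binding was measured here.

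Epidermal genes went both ways. Of 17 that passed, 4 were higher and 3 lower, with a median of 0.06. Lgals7, a galectin of stratified epithelia, went from 18.4 FPKM to 197 FPKM, Slurp1, a secreted epidermal protein, from 19.0 FPKM to 110 FPKM and Krtdap from 10.2 FPKM to 42.5 FPKM. Against them, the cornified envelope genes Ivl (involucrin) and Sprr1a went from 6.51 FPKM to 0.679 FPKM and from 68.1 FPKM to 13.4 FPKM. After these values had been seen, the families of cornified envelope genes were counted. Of 7 small proline-rich (Sprr) genes that passed, 6 were lower, against 7.92% of all genes. Of 4 late cornified envelope (Lce) genes 3 were lower and 1 higher. However, Sprr2g, Sprr2h, Sprr2k, Sprr3, Lce1g, Lce1h and Lce1l passed only through D3, and Lce3c only through D6T-. The direction of these genes was set by the filter. Sprr1a, Sprr1b and Sprr2b reached 1 FPKM in both libraries and were lower. In D6T+, 1 of the 7 Sprr genes was higher than in D3 and 2 were lower, with a median of 0.88. Lce1h was at 52.7 FPKM in D3, 0.0533 FPKM in D6T- and 0.926 FPKM in D6T+. Genes of these families lie close together and resemble each other, and reads that matched several of them had been removed.

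Several pluripotency genes were higher, most of them from low levels. Of 35 genes 16 passed the filter and 12 of these were higher and none lower, with a median of 1.90. However, 7 of the 16 passed only through D6T-, and over all 35 genes the median was 0.43. Among the 9 genes at 1 FPKM or more in both libraries 5 were higher, with a median of 1.13. Tdh (threonine dehydrogenase, an enzyme on which mouse embryonic stem cells depend, chromosome 14, 64111184 to 64127929, minus strand) was at 2.06 FPKM in D3, 50.5 FPKM in D6T- and 8.79 FPKM in D6T+. Nr0b1 (Dax1, an orphan nuclear receptor of the pluripotency network) was at 0.654, 20.9 and 2.17 FPKM, and L1td1, an RNA-binding protein of pluripotent cells, at 6.91, 42.4 and 7.08 FPKM. The zinc finger factor Sall4 was at 0.0436, 5.12 and 0.663 FPKM. In each of the 4 genes D6T- was the highest of the 3 libraries, but they were named as higher genes, which favours D6T-. Other genes of the network were below 1 FPKM in both libraries. Nanog was at 0.119 FPKM in D3 and at 0.735 FPKM in D6T-, Esrrb at 0.220 FPKM and 0.174 FPKM, Zfp42 (Rex1) at 0.0558 FPKM and 0.356 FPKM, and Utf1 at 0.274 FPKM and 0.467 FPKM. By D9T-, Nanog was at 18.5 FPKM and Esrrb at 9.61 FPKM.

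The 4 reprogramming factors themselves were at similar or higher levels in D6T-. Pou5f1 was at 858 FPKM in D3 and at 1935 FPKM in D6T-, Klf4 at 359 FPKM and 587 FPKM, Myc at 378 FPKM and 542 FPKM and Sox2 at 427 FPKM and 436 FPKM. In D6T+ all were below D3, with 587, 242, 202 and 181 FPKM in the same order. Reads of the retroviral coding sequences cannot be separated from endogenous ones in these values.

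Genes of DNA replication differed by small amounts in 1 direction. All 39 passed the filter and all 39 were above zero, with differences between 0.05 and 1.02 and a median of 0.63, while 1, Pola1, was past 2-fold. The median of D6T+ minus D3 was -0.02, and the median of D6T- minus D3 over all genes was 0.03. Mcm5, a subunit of the replicative helicase, was at 49.4 FPKM in D3, 92.5 FPKM in D6T- and 44.1 FPKM in D6T+. Mitotic genes were similar, with 31 of 34 above zero, a median of 0.59 and 3 past 2-fold. Mki67, the proliferation marker Ki-67, was at 12.2, 29.0 and 16.3 FPKM. Uhrf1 and Dnmt1, which maintain DNA methylation at replication, were at 36.9, 86.4 and 37.8 FPKM and at 57.7, 108 and 60.8 FPKM. In these genes D6T+ stayed near D3 and D6T- was above both.

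Inhibitors of the cell cycle and p53 targets were lower in 5 of 23 cases (21.7%), against 7.92% of all genes, and higher in none. The CDK inhibitor Cdkn1c (p57) went from 38.7 FPKM to 5.04 FPKM and Cdkn2b (p15, a TGF-beta target) from 40.8 FPKM to 15.2 FPKM. Mdm2, the ubiquitin ligase of p53, went from 150 FPKM to 54.7 FPKM. Cdkn1a (p21) and Cdkn2a, which act as barriers to reprogramming, were at 751 FPKM and 571 FPKM and at 145 FPKM and 169 FPKM, and Trp53 at 172 FPKM and 176 FPKM. The histone H3.3 genes and chaperones of histone H3 were 12 of 12 above zero, with none past 2-fold. Their median was 0.43, against 0.03 over all genes, and 0.03 for D6T+ minus D3. H3f3a was at 73.7 FPKM in D3, 108 FPKM in D6T- and 87.3 FPKM in D6T+. In the same order H3f3b was at 154, 180 and 179 FPKM, and the H3.3 chaperone Hira at 24.3, 33.8 and 20.5 FPKM. The list also held Chaf1a and Chaf1b, subunits of the chaperone CAF-1 that deposits H3.1 at replication. In D3 and D6T- these were at 29.9 FPKM and 43.3 FPKM and at 17.7 FPKM and 29.0 FPKM.

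Interferon response genes were the list with the most higher genes by number, while pluripotency had a larger share (75%). Of 35 interferon genes 27 passed the filter, and 15 (55.6%) were higher against 4.74% of all genes. None was lower, and the median was 1.19, or 0.86 over all 35. Of the 27, 10 passed only through D6T-. Among the 17 at 1 FPKM or more in both libraries 9 were higher. Oas2, which makes the activator of RNase L, was at 0.338 FPKM in D3, 12.0 FPKM in D6T- and 7.16 FPKM in D6T+. Bst2 (tetherin, which retains budding enveloped viruses) was at 30.6, 163 and 174 FPKM, the immunity GTPase Igtp at 0.836, 21.4 and 55.1 FPKM and Isg15, a ubiquitin-like modifier, at 5.66, 11.1 and 66.1 FPKM. The transcription factor Irf1 was at 9.03, 30.0 and 62.3 FPKM. For each of these 5 genes D3 was the lowest of the 3 libraries, and D6T+ was above D6T- for all but Oas2. The summed level of the 35 genes was 1882 FPKM in D0, 106 FPKM in D3, 402 FPKM in D6T- and 740 FPKM in D6T+. The median of D6T+ minus D3 was 2.48. Antigen processing genes followed, with 5 of 16 higher, none lower and a median of 0.59. The immunoproteasome subunit Psmb8 was at 1.40, 13.7 and 46.8 FPKM, and the class I gene H2-K1 at 21.9, 67.7 and 95.8 FPKM.

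Inflammatory cytokines behaved differently from the interferon genes. Of 19 that passed, 5 were lower and 1 higher, and the median was -0.64. Of the 19, 6 passed only through D3, and among the 13 at 1 FPKM or more in both libraries 4 were lower and 1 higher, with a median of -0.41. Csf1, the macrophage growth factor, went from 199 FPKM to 29.3 FPKM, Cxcl12, a stromal chemokine, from 11.6 FPKM to 1.59 FPKM, and Ptgs2 (cyclooxygenase 2) from 78.2 FPKM to 19.1 FPKM. In D6T+ they were at 163, 23.3 and 50.4 FPKM. Ccl2, a monocyte chemokine, was at 149 FPKM in D3, 112 FPKM in D6T- and 704 FPKM in D6T+. The acute-phase gene Saa3 was the higher member, at 2.53, 16.6 and 46.3 FPKM.

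**Figure D4:**
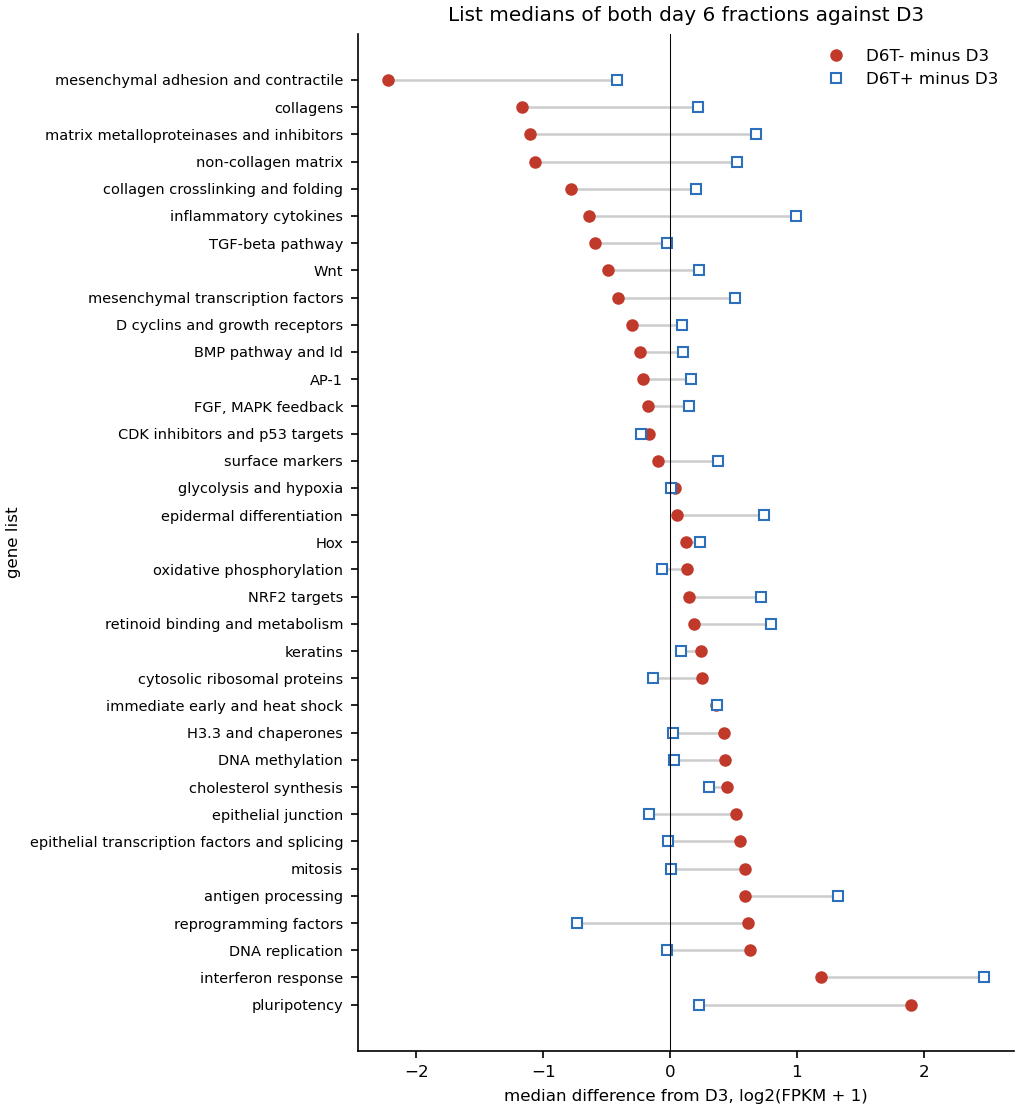
Median difference from D3 on the log2(FPKM + 1) scale for 35 gene lists in D6T- (red circles) and D6T+ (blue squares), both against the same D3 library. Matrix lists lie below zero in D6T- and above zero in D6T+, whereas the interferon list lies above zero in both, with 1.19 and 2.48.

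Immediate early genes, which respond to growth factors and to stress within minutes, went both ways. Of 21 genes in the list with heat shock genes 6 were higher and 3 lower, and among the 18 at 1 FPKM or more in both libraries 4 were higher. Fos was at 23.3 FPKM in D3, 141 FPKM in D6T- and 74.9 FPKM in D6T+, Fosb at 3.26, 26.8 and 8.48 FPKM, and Egr1 at 28.7, 148 and 102 FPKM. Both sorted fractions were thus above the unsorted library, and the part of cell handling in these values was not tested. Hspa1b was at 6.78, 2.89 and 8.93 FPKM and the heat shock genes of the list did not include a higher member. The AP-1 member Fosl1, which is typical of mesenchymal cells, was lower at 22.4 FPKM in D6T- after 71.2 FPKM, and was at 64.7 FPKM in D6T+. Of 15 FGF and MAPK feedback genes that passed, 3 (20%) were lower and 1 (6.67%) higher, against 7.92% and 4.74% of all genes. The median was -0.17. Dusp4 and Phlda1, induced by ERK signalling, went from 55.5 FPKM to 15.6 FPKM and from 56.6 FPKM to 13.3 FPKM. In the same list Etv5 was the higher gene, from 16.3 FPKM to 37.6 FPKM, and Dusp6 was at 24.9 FPKM and 23.5 FPKM.

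Metabolic lists differed little as a whole and contained single genes with large differences. Of 28 glycolysis and hypoxia genes 3 were higher and 1 lower, with a median of 0.04, and 1 of the 26 at 1 FPKM or more in both libraries was higher. Aldoc, an aldolase isoform, went from 0.752 FPKM to 8.65 FPKM, Pdk1, which limits pyruvate entry into the mitochondria, from 3.45 FPKM to 11.1 FPKM, and the vasoactive peptide gene Adm from 50.5 FPKM to 9.99 FPKM. Of 79 oxidative phosphorylation genes 1 was higher, and of 79 cytosolic ribosomal protein genes none was past 2-fold. Cholesterol synthesis genes were higher in 4 of 23 cases (17.4%), against 4.74% of all genes, with a median of 0.45. Among them was Tm7sf2, a sterol reductase, at 8.70 FPKM and 21.7 FPKM. Among NRF2 targets 5 of 26 (19.2%) were higher and 2 (7.69%) lower, against 4.74% and 7.92% of all genes. Of the 26, 2 passed only through D6T-, and among the 24 at 1 FPKM or more in both libraries 4 were higher and 2 lower. The glutathione transferase Gsta3, which passed only through D6T-, went from 0.853 FPKM to 13.2 FPKM and the heme oxygenase Hmox1 from 310 FPKM to 129 FPKM. Hox genes, which record the position of the fibroblasts along the body axis, were higher in none of 33 cases and lower in 2 (6.06%), Hoxb9 and Hoxc13, which is close to the share over all genes.

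The largest differences add members outside these lists. MicroRNA, small nucleolar and other small RNA genes, predicted genes, unnamed transcripts and the 4 factors were left out of this ranking. Of 33 small RNA genes that passed the filter 13 were higher and 9 lower, several of them listed at 0 in 1 library with a high value in the other. Atp2a3, a calcium pump of the endoplasmic reticulum (chromosome 11, 72774671 to 72806546, plus strand), showed the largest increase among the genes ranked, from 0.659 FPKM in D3 to 38.4 FPKM in D6T-, with 8.01 FPKM in D6T+. Trh, the precursor of thyrotropin-releasing hormone, was at 1.92, 63.8 and 42.8 FPKM, and Gpx2, a glutathione peroxidase of epithelia, at 0.403, 28.0 and 5.14 FPKM. The germ cell factor Dmrtc2 was at 3.45, 69.1 and 10.1 FPKM and the amino acid transporter Slc38a5 at 0.430, 22.3 and 3.18 FPKM. Spock2, Fmo1, Pllp, Cacna2d2, Clec3b and Tac2 completed the 15 largest together with Tdh, Nr0b1, Igtp and Spint1 named above. Igtp was at a higher level in D6T+ than in D6T-. The 15 genes were picked for a high D6T- value, which favours D6T- over D6T+, so this order is no separate result. Atp2a3, Gpx2, Slc38a5, Spock2, Fmo1, Nr0b1, Cacna2d2, Igtp, Tac2 and Spint1 were below 1 FPKM in D3 and passed only through D6T-. Thy1, whose protein was used for the sort, was among the 15 largest reductions. Of the 15, 13 belonged to a matrix, contractile, TGF-beta, surface marker or cornified envelope group described above. The others were Prss23, a secreted serine protease, at 150, 4.59 and 39.7 FPKM, and Ankrd1, a nuclear cofactor induced by YAP and by mechanical load, at 66.4, 2.26 and 29.7 FPKM.

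Surface molecules other than Thy-1 were also examined, since they can be used for sorting. Nt5e (CD73) went from 12.1 FPKM to 44.7 FPKM, Itgb4, the laminin receptor subunit of hemidesmosomes, from 27.9 FPKM to 70.4 FPKM, and Alpl (alkaline phosphatase, an early reprogramming marker) from 1.33 FPKM to 6.13 FPKM. Cd44 was at 129 FPKM and 66.5 FPKM and Icam1 at 26.9 FPKM and 15.7 FPKM, neither past 2-fold. The growth factor receptor Pdgfrb was lower at 1.36 FPKM after 8.28 FPKM.

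Finally, the genes of this comparison were looked up in D9T- against D9T+, a pair of fractions that shares no library with it. Over 11416 genes kept on both occasions, 1.8% were higher and 7.01% lower in D9T- than in D9T+. Of 824 genes lower in D6T- than in D3, 396 (48.1%) were lower in D9T- than in D9T+, and these were 49.5% of the 800 genes lower there. Of 546 genes higher in D6T-, 63 (11.5%) were higher in D9T-, or 30.7% of 205. Genes with opposite directions were 25 that were higher in D6T- and lower in D9T-, and 4 with the reverse. The genes lowest on both occasions included Thy1, whose protein defined the fractions, and Tnc, Bgn and Igfbp7. The highest were Klk1, Morc1, Arhgap36, Cbr2 and Slc7a3. Tnc was at 14.3 FPKM in D9T- and 327 FPKM in D9T+, and Morc1, a germ cell ATPase that silences transposons, at 12.9 FPKM and 3.04 FPKM. The interferon list had a median of -0.67 for D9T- minus D9T+, and Bst2 was at 399 FPKM in D9T- and 560 FPKM in D9T+.

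**Figure D5:**
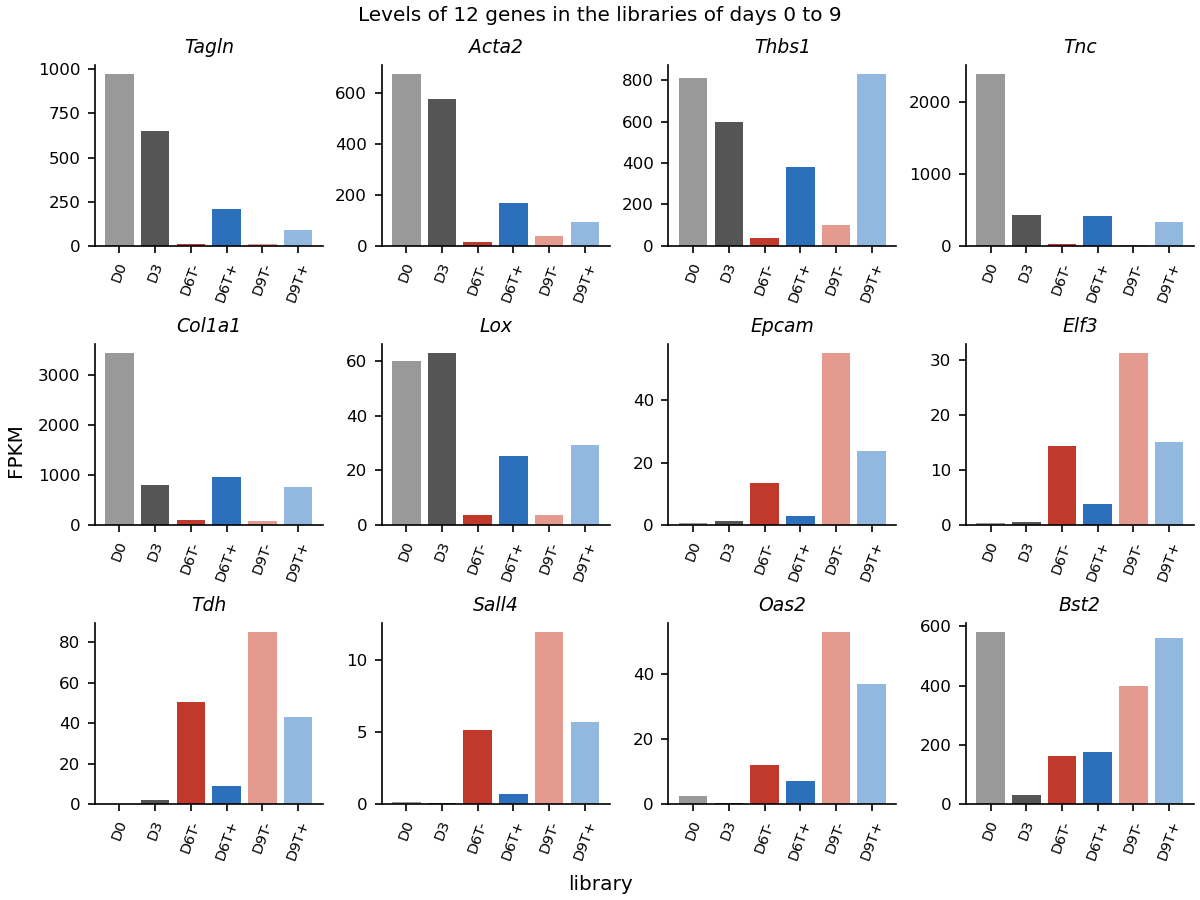
FPKM of 12 genes in the 6 libraries of days 0 to 9, with 1 bar per library. Tagln, Acta2, Thbs1, Tnc, Col1a1 and Lox are lowest in D6T- and D9T-, Epcam, Elf3, Tdh and Sall4 are higher in D6T- than in D3 and highest in D9T-, and Bst2 is lowest in D3.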

How the data were processed

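mRNA-Seq libraries were prepared by the authors from cells at stages of OSKM reprogramming, with 1 library per condition. Reads were aligned with STAR to mouse build mm9, reads with more than 2 mismatches or several loci were removed, and Cuffdiff gave the values. Tool versions were not given in the sources used here. The labels and the study's methods name different library kits, so use of strand in counting is unclear and overlapping or antisense genes are uncertain. The deposited values are FPKM per gene, with modelled interval ends in FPKM and a status word for each estimate. Read counts per library were not used here, so depth is known only relatively. Genes with a failed estimate were left out.

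D6T- was compared with D3 as log2(FPKM + 1) over genes with at least 1 FPKM in either library. No test was run, since each side had 1 library. Called genes differed by at least 2-fold. The text names the 15 genes with the largest difference in each direction (without the 4 factors, small RNA genes and symbols starting with Gm and a digit, ending in Rik or of the form LOC and digits), the 5 with the largest smaller difference in each direction in both this comparison and D9T- against D9T+, and members of gene lists with their role. The genes, lists and comparison were chosen with earlier results of these data known, and the Lce and Sprr families and the CArG box after their values had been seen. Gene positions are those of mm9. Promoters came from RefSeq (GRCm38.p6), a different build, and were matched by symbol. Other pseudocounts, scalings, filters and folds were tried. Analyses used Python 3.11.15, pandas 2.3.3, numpy 2.4.6, scipy 1.17.1 and matplotlib 3.10.9, and the scripts were tested on simulated data. Some genes that the naming rule covers are not reported here.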

Additional observations from a re-analysis of the deposited data

Results flagged for a closer look

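The list medians of the difference from D3 lay on opposite sides of zero in the day 6 fractions for 18 of 35 gene lists and for 3 of 9 marker lists. Both fractions were set against the same D3 library, several of the medians are close to zero, and the differences between the fractions were not tested. All values are on the log2(FPKM + 1) scale.

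Lists of matrix and mesenchyme were below zero in D6T- and above it in D6T+. The medians in D6T- and D6T+ were -1.16 and 0.22 for collagens, -0.78 and 0.21 for collagen crosslinking and folding, and -1.07 and 0.53 for non-collagen matrix. They were -1.11 and 0.68 for metalloproteinases and their inhibitors and -0.41 and 0.51 for mesenchymal transcription factors. Fibroblast markers, which include Thy1, had medians of -2.38 and 1.04, and adipocyte markers of -0.52 and 0.33.

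Among signalling lists, inflammatory cytokines had medians of -0.64 in D6T- and 0.99 in D6T+, and Wnt genes of -0.49 and 0.23. Smaller medians of this direction were those of AP-1 (-0.21 and 0.16), the BMP pathway (-0.24 and 0.10), D cyclins and growth receptors (-0.30 and 0.096), FGF and MAPK feedback (-0.17 and 0.15) and surface markers (-0.094 and 0.38).

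The opposite direction was seen for the reprogramming factors, with 0.61 in D6T- and -0.73 in D6T+, and for epithelial junction genes, with 0.52 and -0.16. Epithelial transcription factors had medians of 0.55 and -0.014, DNA replication of 0.63 and -0.022, oxidative phosphorylation of 0.13 and -0.066, cytosolic ribosomal proteins of 0.25 and -0.13, and neural markers of 0.072 and -0.68.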

How the results depend on the processing

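Of 805 recomputed values, 735 stayed within the margin set for them, 70 moved and 0 reversed. By the rule used, counts and shares could only stay or move, and a list median could reverse only where its interval excluded zero. Another pseudocount cannot change the sign of a gene. That none reversed was therefore largely fixed in advance. With a pseudocount of 0.1, 859 genes were higher in D6T- and 131 were higher both there and in D9T-. With a 4-fold threshold 119 genes were higher and 183 lower, 0 were higher and 52 lower on both occasions, and the lower share was 59.1% for the contractile list, 26.9% for collagens and 33.3% for other matrix genes. At that threshold the higher share was 22.2% for interferon response, 0% for mitosis and 0% for DNA replication. The higher share of DNA replication was also 0% with scaling by the median of ratios and with a filter of 5 FPKM, which left 36 genes higher on both occasions. Without a filter on low values the lower share of collagens was 34.1%, and pluripotency had a median of 0.43 and a higher share of 34.3%. A stricter fold or filter takes in fewer genes by construction. Of 226 list genes past 2-fold, 223 stayed so with both libraries scaled to the same total. All 226 stayed so with a pseudocount of 0.1, but a smaller pseudocount can only widen a difference. That count was therefore fixed by construction. The alternatives for genes shared with day 9 were chosen after seeing the data. No paired analysis was possible because each condition had 1 library, and no replicate could be left out. The missing replicates, the wide modelled intervals and the confounding of time with sorting limit all values.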

Other observations

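Crabp1, a cytosolic retinoic acid-binding protein, was at 116 FPKM in D3, 206 FPKM in D6T- and 2953 FPKM in D6T+. Of 14 retinoid genes that passed the filter, 1 was higher and 1 lower in D6T- than in D3. Each is a share of 7.14%, against 4.74% and 7.92% of all genes. Among 11 DNA methylation genes 2 (18.2%) were higher, against 4.74% of all genes, and none lower in D6T-, with a median of 0.44.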
